A study of Mus musculus with 24 samples.

Results

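The genes described here carry out mitosis. They are 60 of the 41710 genes in the tables, chosen by name from the textbook parts list of the mitotic machinery, and each was found once in both tables under its own symbol. The list covers the kinase and phosphatase switch that starts mitosis, the centrosome kinases, the chromosomal passenger complex, the kinetochore, the spindle checkpoint, the anaphase-promoting complex or cyclosome (APC/C) with its partners, the spindle motors and cytokinesis proteins, condensin and chromosome proteins, and a pair of transcription factors that drive mitotic genes. No measured value was used to choose them, although earlier results of these data were known.

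The study asked what mouse embryo fibroblasts (MEFs) lose when Myc, Mlx or both are inactivated. Myc is the transcription factor that pairs with Max to drive growth and proliferation genes, and Mlx is the common partner of a parallel set of glucose-responsive and Mxd factors that recognise the same DNA element. RNA was sequenced from 24 cultures, 3 in each of 8 groups, and each value is in CPM, the number of reads on a gene scaled to a common library size. The 12 primary libraries held WT, MlxKO, MycKO and double-knockout (DKO) MEFs at day 10, and the 12 immortalized libraries held the same genotypes.

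WT MEFs had intact Myc and Mlx loci. MlxKO, MycKO and DKO MEFs came from embryos whose Mlx alleles, Myc alleles or both were floxed and which also carried a CreER recombinase under the ubiquitously active ROSA26 promoter, and exon loss was induced in culture with 500 nM 4-hydroxytamoxifen. By the study's account WT MEFs were floxed, CreER-bearing lines of the same kind without excision, and which line gave these WT libraries was not stated. Embryos were of embryonic day 14 to 16, and at least 6 were pooled per genotype. The immortalized cultures had first received SV40 T-antigen, a viral oncoprotein that blocks the retinoblastoma and p53 proteins. They were then excised with the same drug, by the study's methods for longer than the primary cells. The study reported that most immortalized MycKO cells became tetraploid or pseudo-tetraploid, and the part of this in the results below was not tested. By the study's methods the immortalized WT cells were kept free of the drug, and the labels do not say which primary cultures received it or its vehicle. Drug exposure, Cre activity and genotype therefore cannot be told apart in comparisons with WT. Embryos were pooled within each group, so embryo pool and genotype also cannot be told apart, in comparisons between knockouts included. A single WT line served as control for most of the work, so the 3 libraries of a group may be cultures of the same pooled line, and p-values measure only the spread between these libraries. The primary and immortalized tables were normalized separately, so no test was made between them.

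As background, a cell enters mitosis when cyclin B activates the kinase Cdk1 and Cdc25 phosphatases remove the brake that Wee1 and Pkmyt1 place on it. Kinetochores then attach chromosomes to the spindle, and the spindle checkpoint keeps the APC/C inactive until every chromosome is attached. Most of these genes are transcribed mainly in the G2 and M phases, under the MuvB complex with Mybl2 (B-Myb) and then Foxm1, through a promoter element known as the cell-cycle genes homology region (CHR), often beside CCAAT boxes. In proliferating cultures their RNA therefore follows how many cells are dividing. In these bulk libraries, fewer dividing cells and less RNA per dividing cell cannot be told apart.

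Libraries held 15986856 to 20966163 reads on genes, and all 60 genes passed the filter, 1 CPM or more in 3 or more libraries of each table, so none was lost to low expression. Myc RNA checked the labels in the primary cultures, at 89.8 to 100 CPM in WT against 25.8 to 26.8 in MycKO and 19.9 to 22.9 in DKO MEFs. Mlx RNA fell less, by 0.76 on the log2 scale in MlxKO and by 1.02 in DKO MEFs, and 51.9% of its exon bases overlap Psmc3ip on the opposite strand. Fibroblast markers were abundant, with all 10 detected. The summed CPM of 10 macrophage markers was 146 to 266 in WT, 155 to 179 in MlxKO, 25.2 to 30.9 in MycKO and 50.8 to 102 in DKO primary libraries, and of the 9 that passed the filter all fell in MycKO and in DKO MEFs and 0 in MlxKO MEFs. Epithelial marker sums were 25.4 to 29.5 CPM in WT against 5.86 to 10.8 in the knockouts, endothelial sums were 14 to 14.8 against 3.73 to 8.18, and 8 of 10 fibroblast markers rose in MycKO and in DKO MEFs. Their part in the results below was not tested.

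In primary MEFs the mitotic genes fell together in all 3 knockouts, and none rose. Against WT, 52 of 60 fell in MycKO MEFs (86.7%, where 21.9% of all 13101 genes tested fell and 20.4% rose). In MlxKO MEFs 26 fell (43.3%, where 5.14% of all genes fell and 3.75% rose), and in DKO MEFs 55 fell (91.7%, where 25.5% fell and 24% rose). These are limma calls at a Benjamini-Hochberg adjusted p below 0.05 on log2(CPM + 1), a scale that slightly understates changes of low genes. Over the 60 genes the median log2 fold change of MlxKO MEFs was -0.28, that of MycKO MEFs -0.54 and that of DKO MEFs -0.86, while the median over all genes lay at 0.00 in each comparison. The standard error of a member's log2 fold change ran from 0.060 to 0.18 with a median of 0.095. The 3 comparisons share the WT libraries and are not independent of each other.

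**Figure D1:**
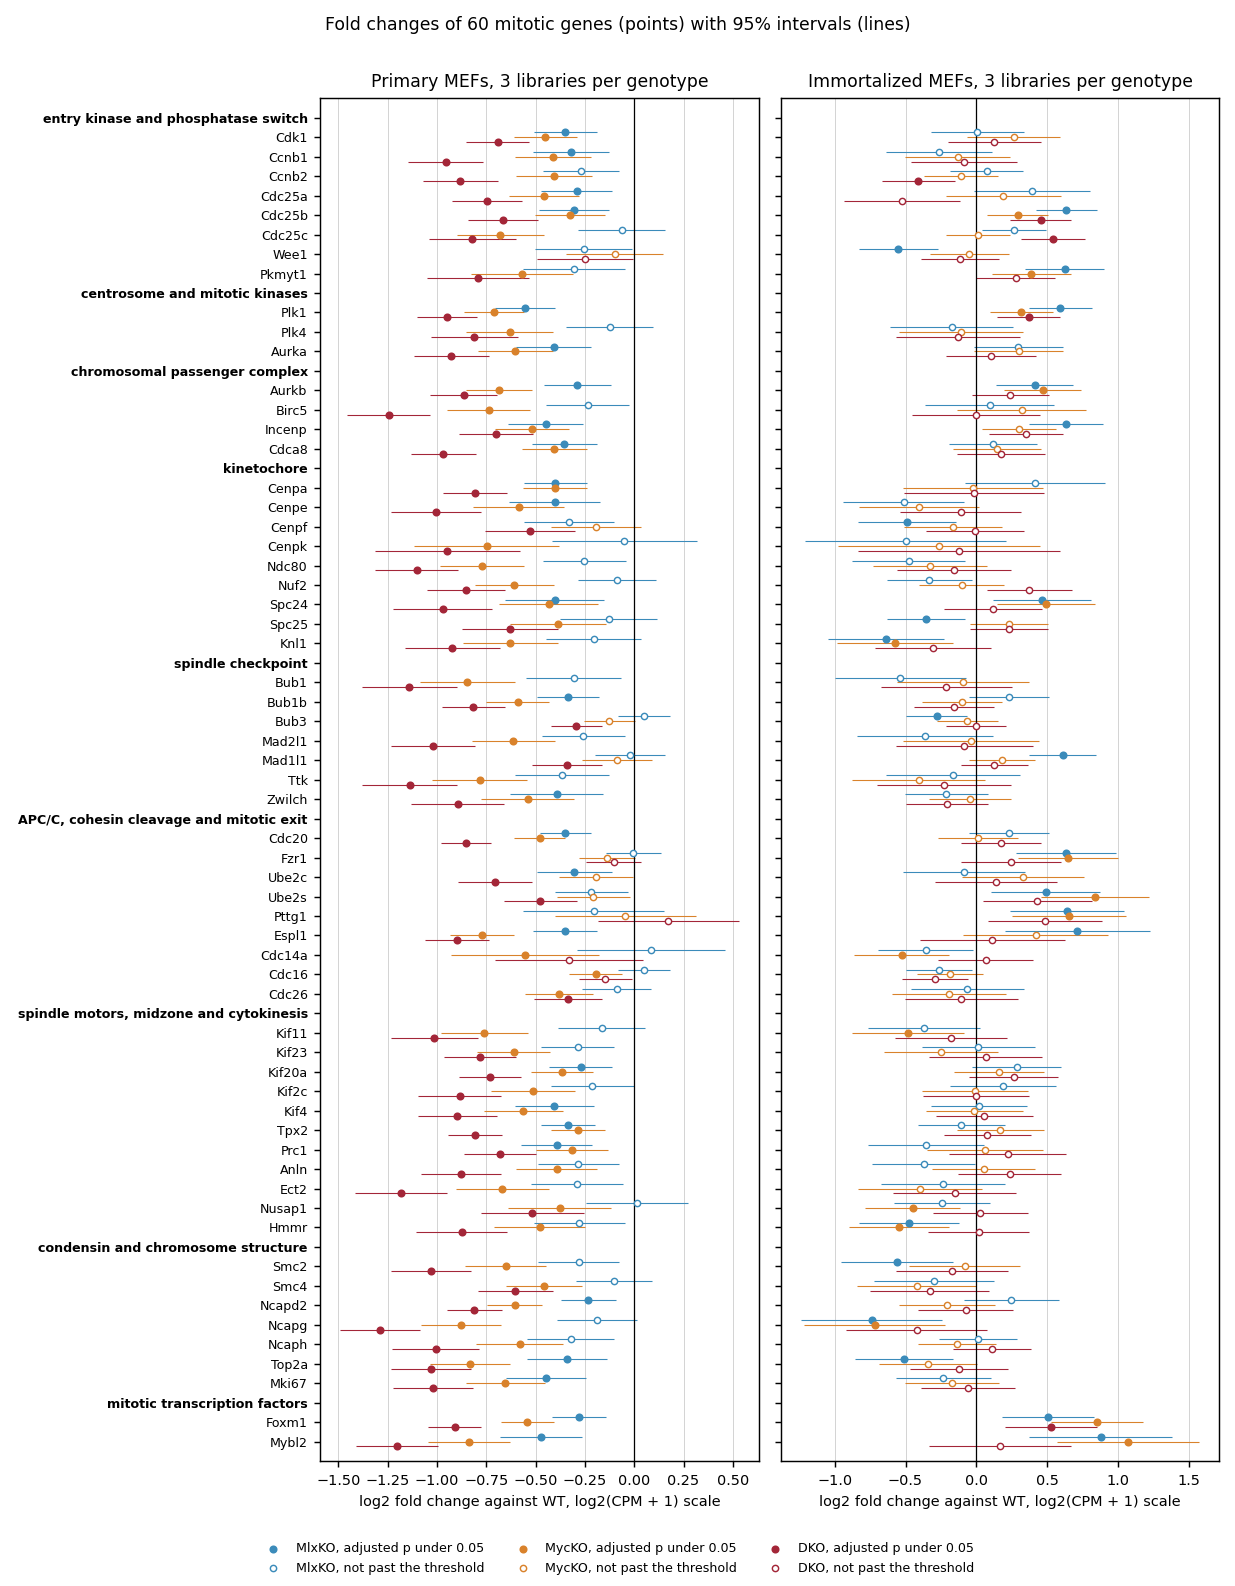
Log2 fold change against WT (x axis, log2(CPM + 1) scale) of each of the 60 genes (y axis, grouped by role) in MlxKO, MycKO and DKO MEFs, primary on the left and immortalized on the right. Points are limma estimates, bars are 95% intervals, and filled points passed an adjusted p of 0.05. In primary MEFs no gene passed above 0, whereas in immortalized MEFs called genes lay on both sides.

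The 60 genes added together gave the same picture by library. Their summed CPM was 3846 to 3901 in WT, 3130 to 3271 in MlxKO, 2602 to 3056 in MycKO and 2130 to 2269 in DKO primary libraries, with no overlap between any groups. All 3 knockout libraries lay below all 3 WT libraries for 54 genes in MycKO (24.6% of all genes did so), 45 in MlxKO (14.4%) and 58 in DKO MEFs (30.8%). Within the MycKO group, 1 library, number 10 in the tables, was the highest of its group for 43 of the 60 genes.

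**Figure D2:**
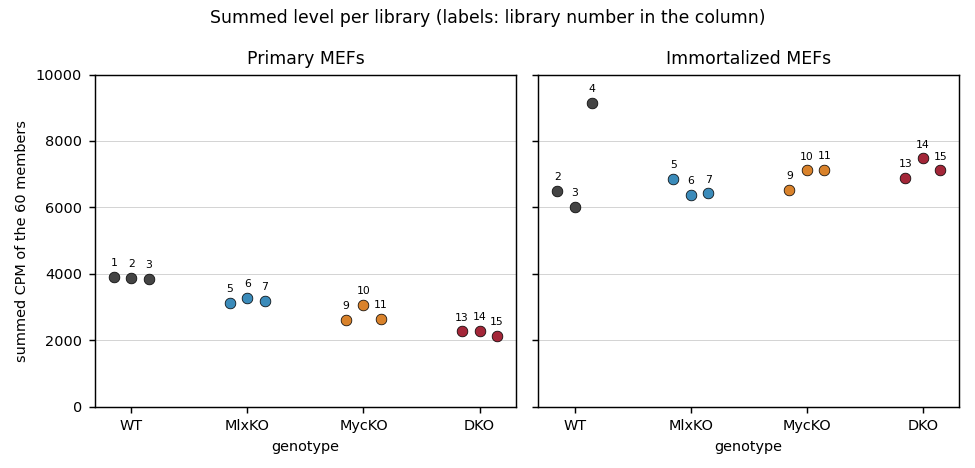
Summed CPM of the 60 genes (y axis, starting at 0) in each library by genotype (x axis), primary on the left and immortalized on the right. Points are libraries labelled with their number, and they step down from WT to DKO in primary MEFs, while 1 immortalized WT library stands at 9149, above the rest.

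Many promoters of these genes hold a match to the CHR or the CCAAT box. A few are printed here as examples of windows with and without a match, chosen after their values were seen. Promoter sequences are RefSeq windows on GRCm38.p6, from 250 bases before to 50 after each start, and 49 of the 60 genes had one. Aurkb, Cdc25c, Foxm1, Incenp, Kif20a, Pkmyt1, Smc4, Spc24, Tpx2, Wee1 and Zwilch were not matched. Each line gives the 120 bases just before the start, 5′ to 3′ on the gene's strand, with capitals marking a CHR (TTTGAA or TTCGAA on either strand, so also TTCAAA) or a CCAAT box (CCAAT, or ATTGG on the other strand).
Cdk1, chr10:69352913-69353032, minus strand: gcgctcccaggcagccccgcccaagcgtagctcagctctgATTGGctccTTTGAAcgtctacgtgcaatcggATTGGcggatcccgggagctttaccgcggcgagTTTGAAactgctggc
Cdc20, chr4:118437344-118437463, minus strand: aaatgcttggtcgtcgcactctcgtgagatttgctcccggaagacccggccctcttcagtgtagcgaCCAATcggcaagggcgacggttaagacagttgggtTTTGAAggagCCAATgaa
Ube2c, chr2:164769809-164769928, plus strand: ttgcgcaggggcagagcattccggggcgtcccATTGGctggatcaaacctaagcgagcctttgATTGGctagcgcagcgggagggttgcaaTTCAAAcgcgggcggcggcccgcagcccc
Kif11, chr19:37376262-37376381, plus strand: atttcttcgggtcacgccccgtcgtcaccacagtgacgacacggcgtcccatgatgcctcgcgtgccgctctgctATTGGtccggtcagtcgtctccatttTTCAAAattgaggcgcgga
Top2a, chr11:99024190-99024309, minus strand: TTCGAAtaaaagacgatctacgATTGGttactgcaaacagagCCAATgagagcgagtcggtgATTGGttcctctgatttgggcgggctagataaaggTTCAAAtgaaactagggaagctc
Pttg1, chr11:43425982-43426101, minus strand: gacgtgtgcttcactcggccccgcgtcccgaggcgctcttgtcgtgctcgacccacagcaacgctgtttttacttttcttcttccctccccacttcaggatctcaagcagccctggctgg
Cdc16, chr8:13757536-13757655, plus strand: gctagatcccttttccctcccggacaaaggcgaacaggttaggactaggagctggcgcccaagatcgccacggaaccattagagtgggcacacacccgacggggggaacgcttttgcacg

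The first 5 genes hold both elements in the printed stretch, and Pttg1 and Cdc16 hold neither in the whole window. The first 5 fell in primary DKO MEFs, Pttg1 and Cdc16 were not called there, and Cdc16 fell in MycKO MEFs. Since these were picked, their contrast is no result. Birc5, Cdc26, Mad1l1, Mad2l1, Mybl2, Ncaph, Nuf2, Nusap1 and Plk4, the other genes with neither element in their windows, all fell in DKO MEFs. Across the 49 genes with a window, 67.3% held a CHR and 67.3% a CCAAT box, and 55.1% held both, where 21.7%, 41.1% and 8.61% of the 27025 genes in the promoter table did. The palindromic E-box CACGTG, the element bound by Myc-Max and Mlx dimers, was in 8.16% of the members' windows by gene and in 8.09% of all. Of 24 DNA replication genes with a window, 20.8% held a CHR and 70.8% a CCAAT box. Of genes with a CHR match, 32 of 33 fell in primary DKO MEFs at a median log2 fold change of -0.88, and of those without, 13 of 16 fell at a median of -0.83. A match is a description of the letters and not of a bound site.

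The switch that starts mitosis was lower in MycKO and DKO MEFs at its kinase, its cyclins and all 3 of its activating phosphatases. Of its 8 genes, 7 fell in MycKO, 4 in MlxKO and 7 in DKO primary MEFs, with a median log2 fold change in DKO of -0.77. Cdk1 measured 93, 96.9 and 87.8 CPM in WT libraries, 69.3, 70.9 and 77.1 in MlxKO, 66.4, 69.3 and 66.7 in MycKO and 58.9, 61.6 and 50.9 in DKO. The log2 fold changes of Cdk1, the kinase itself and a gene at chr10:69170976-69236595 on GRCm39, were -0.35 (MlxKO), -0.45 (MycKO) and -0.69 (DKO), with limma adjusted p = 0.00752, 0.000143 and 1.41e-06, and every knockout library lay below every WT library. Ccnb1 measured 103, 94.9 and 94.4 CPM in WT libraries, 76.6, 81.6 and 75.2 in MlxKO, 64.1, 87 and 69.4 in MycKO and 52.2, 48.9 and 48.1 in DKO. This B-type cyclin had log2 fold changes of -0.32 (MlxKO), -0.41 (MycKO) and -0.95 (DKO), with limma adjusted p = 0.035, 0.0015 and 2.78e-07, and its DKO libraries were the lowest of the 12. Its pseudogene Ccnb1-ps shares 41.5% of its 50-base stretches, so some reads may be split. Ccnb2 measured 45.7, 45.3 and 50.8 CPM in WT libraries, 38.1, 36.9 and 42.2 in MlxKO, 30.9, 39.8 and 35.8 in MycKO and 25.3, 25.7 and 24.6 in DKO. The second B-type cyclin had log2 fold changes of -0.27 (MlxKO), -0.41 (MycKO) and -0.88 (DKO), with limma adjusted p = 0.0748, 0.00167 and 7.1e-07, which in MlxKO MEFs did not pass the threshold.

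The Cdc25 phosphatases remove inhibitory phosphates from Cdk1. Cdc25a measured 34.7, 35.1 and 36.9 CPM in WT libraries, 28.3, 26.8 and 31.7 in MlxKO, 24.7, 27.3 and 24.9 in MycKO and 20.3, 22.2 and 19.9 in DKO. It had log2 fold changes of -0.29 (MlxKO), -0.46 (MycKO) and -0.75 (DKO), with limma adjusted p = 0.0384, 0.000334 and 1.99e-06. All 9 knockout libraries were below WT, and the DKO libraries below the single knockouts. Cdc25b measured 31.9, 31 and 31.9 CPM in WT libraries, 26.7, 24.2 and 25.4 in MlxKO, 22.5, 26.9 and 26 in MycKO and 19.5, 20.4 and 18.8 in DKO. The log2 fold change was -0.30 (MlxKO), -0.32 (MycKO) and -0.66 (DKO), with limma adjusted p = 0.0318, 0.00517 and 6.52e-06, again without overlap with WT. Cdc25c measured 11.9, 11 and 10.6 CPM in WT libraries, 10.4, 10.7 and 10.7 in MlxKO, 7.1, 6.34 and 6.38 in MycKO and 6.44, 5.49 and 5.76 in DKO. The log2 fold changes of this gene were -0.06 (MlxKO), -0.68 (MycKO) and -0.82 (DKO), with limma adjusted p = 0.763, 6.54e-05 and 7.35e-06, so that MlxKO libraries overlapped WT while MycKO and DKO libraries overlapped each other well below it. Wee1, the kinase that opposes them, behaved differently. Wee1 measured 23.5, 28.9 and 28.6 CPM in WT libraries, 23.7, 22.2 and 21.3 in MlxKO, 24.4, 29.6 and 21.7 in MycKO and 24.6, 23.1 and 19.9 in DKO. Its log2 fold change was -0.26 (MlxKO), -0.10 (MycKO) and -0.25 (DKO), with limma adjusted p = 0.184, 0.52 and 0.0839, and no group stood clear of another.

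All 3 centrosome and spindle kinases fell in MycKO and DKO MEFs, and Plk1 and Aurka also in MlxKO MEFs. Plk1 measured 98.6, 95.7 and 81.9 CPM in WT libraries, 62.3, 62 and 62.2 in MlxKO, 54.7, 55.7 and 56.9 in MycKO and 49.3, 46.6 and 45.2 in DKO. Plk1, which drives mitotic entry and spindle assembly, had log2 fold changes of -0.55 (MlxKO), -0.71 (MycKO) and -0.95 (DKO), with limma adjusted p = 0.000136, 9.22e-07 and 2.63e-08, and the 4 genotypes did not overlap at all. Aurka measured 53.8, 53.4 and 51.7 CPM in WT libraries, 39.2, 36.4 and 43.9 in MlxKO, 34, 39 and 31 in MycKO and 26.1, 27.3 and 28.9 in DKO. Aurka, the kinase of spindle poles, had log2 fold changes of -0.41 (MlxKO), -0.60 (MycKO) and -0.93 (DKO), with limma adjusted p = 0.00868, 4.79e-05 and 3.68e-07. Its DKO libraries were below every other library. Plk4 measured 37.5, 37.1 and 40 CPM in WT libraries, 34.2, 33.7 and 37.1 in MlxKO, 20.8, 28.7 and 23.9 in MycKO and 22.6, 22.6 and 19 in DKO. Plk4, the trigger of centriole duplication, had log2 fold changes of -0.12 (MlxKO), -0.63 (MycKO) and -0.81 (DKO), with limma adjusted p = 0.516, 0.000125 and 7.82e-06, with MlxKO libraries at the lower edge of WT.

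The chromosomal passenger complex corrects faulty attachments of chromosomes to the spindle, and its 4 genes fell together in MycKO and DKO MEFs. Aurkb measured 34.3, 37.8 and 32.4 CPM in WT libraries, 27.2, 28 and 29.7 in MlxKO, 20.8, 21.5 and 21.5 in MycKO and 19.2, 18 and 18.8 in DKO. Aurkb is its kinase, and it had log2 fold changes of -0.29 (MlxKO), -0.69 (MycKO) and -0.86 (DKO), with limma adjusted p = 0.0316, 3.81e-06 and 2.16e-07. Birc5 measured 49.7, 49.6 and 51.4 CPM in WT libraries, 37.2, 42.3 and 48.7 in MlxKO, 27.6, 32.2 and 29.5 in MycKO and 18.2, 22.3 and 21.5 in DKO. Birc5 (survivin), the subunit that brings the complex to chromosomes, had log2 fold changes of -0.24 (MlxKO), -0.74 (MycKO) and -1.24 (DKO), with limma adjusted p = 0.155, 1.74e-05 and 4.66e-08. The groups of both genes stepped down without overlap from WT to MlxKO, MycKO and DKO. Incenp and Cdca8, the other subunits, fell in all 3 knockouts, and Cdca8 had log2 fold changes of -0.35, -0.41 and -0.97 in MlxKO, MycKO and DKO MEFs.

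Of 9 kinetochore genes, 8 fell in MycKO, 3 in MlxKO and all 9 in DKO primary MEFs, with a median log2 fold change in DKO of -0.92. Cenpa measured 57.5, 51.9 and 52 CPM in WT libraries, 43.6, 40.4 and 37.8 in MlxKO, 42, 38.1 and 41.4 in MycKO and 30.6, 30.8 and 29.5 in DKO. Cenpa, the histone H3 variant that marks centromeres, had log2 fold changes of -0.40 (MlxKO), -0.40 (MycKO) and -0.81 (DKO), with limma adjusted p = 0.00331, 0.000425 and 2.54e-07, with the single knockouts alike in range and the DKO libraries below both. Ndc80 measured 31.2, 30.1 and 31.4 CPM in WT libraries, 23.1, 27.9 and 26.6 in MlxKO, 17.5, 20.1 and 15.7 in MycKO and 14.9, 13.3 and 13.5 in DKO. Ndc80, which binds microtubules, had log2 fold changes of -0.25 (MlxKO), -0.77 (MycKO) and -1.10 (DKO), with limma adjusted p = 0.129, 1.13e-05 and 1.74e-07, with its MycKO and DKO libraries far below WT. Cenpf measured 39.8, 45.7 and 40.2 CPM in WT libraries, 33.9, 33.6 and 31.7 in MlxKO, 33.2, 44.1 and 33.2 in MycKO and 31.3, 29.7 and 25.5 in DKO. Cenpf, a large outer kinetochore protein, had log2 fold changes of -0.33 (MlxKO), -0.19 (MycKO) and -0.53 (DKO), with limma adjusted p = 0.0653, 0.163 and 0.00067, since 1 MycKO library lay inside the WT range. Among the partners of Ndc80, Nuf2 fell by 0.85, Spc25 by 0.63 and Knl1 by 0.92 on the log2 scale in DKO MEFs. About 52.5% of the exon bases of Spc25 overlap Nostrin on the other strand, and how the counting treated strand was not given in the sources used here.

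The spindle checkpoint genes fell in number from 2 of 7 in MlxKO to 5 in MycKO and all 7 in DKO MEFs. Bub1 measured 47.7, 42.5 and 46.5 CPM in WT libraries, 34.1, 39.4 and 36.7 in MlxKO, 21.5, 31.2 and 23 in MycKO and 20.2, 21.5 and 18.7 in DKO. Bub1, a kinase at unattached kinetochores, had log2 fold changes of -0.31 (MlxKO), -0.85 (MycKO) and -1.14 (DKO), with limma adjusted p = 0.105, 1.65e-05 and 4.97e-07, and MycKO and DKO libraries stood far below WT. Bub1b measured 52.9, 51.4 and 46.9 CPM in WT libraries, 39.2, 42.4 and 37.6 in MlxKO, 33.9, 33.1 and 32.3 in MycKO and 29.6, 27.3 and 27.8 in DKO. Bub1b (BubR1), part of the inhibitor of Cdc20, had log2 fold changes of -0.34 (MlxKO), -0.59 (MycKO) and -0.81 (DKO), with limma adjusted p = 0.00953, 9.44e-06 and 2.1e-07, and its 4 genotypes did not overlap. Mad2l1 measured 47.7, 45.3 and 47 CPM in WT libraries, 36, 40.2 and 40.6 in MlxKO, 28.9, 36.3 and 26.2 in MycKO and 23.6, 22.7 and 21.3 in DKO. Mad2l1, the Mad2 protein that binds Cdc20, had log2 fold changes of -0.26 (MlxKO), -0.61 (MycKO) and -1.02 (DKO), with limma adjusted p = 0.121, 0.000111 and 4.06e-07, with DKO libraries lowest.

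The remaining named checkpoint genes changed less, and only in DKO MEFs did they pass the threshold. Bub3 measured 104, 101 and 97.8 CPM in WT libraries, 98.8, 108 and 107 in MlxKO, 87.7, 96.7 and 92.9 in MycKO and 81.8, 83.7 and 80.9 in DKO. Bub3, the adaptor of Bub1 and Bub1b, had log2 fold changes of 0.05 (MlxKO), -0.13 (MycKO) and -0.29 (DKO), with limma adjusted p = 0.684, 0.109 and 0.000807. Mad1l1 measured 29.9, 32.5 and 27.1 CPM in WT libraries, 29.1, 28.6 and 30.1 in MlxKO, 29.4, 26.2 and 28.4 in MycKO and 24.6, 22.8 and 22.6 in DKO. Mad1l1, the partner that recruits Mad2, had log2 fold changes of -0.02 (MlxKO), -0.09 (MycKO) and -0.34 (DKO), with limma adjusted p = 0.907, 0.441 and 0.00303. For both genes the DKO libraries lay below every other library. The MycKO libraries of Bub3 also lay below its WT and MlxKO libraries, although the difference from WT was not called, and for Mad1l1 both single knockouts overlapped WT.

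**Figure D3:**
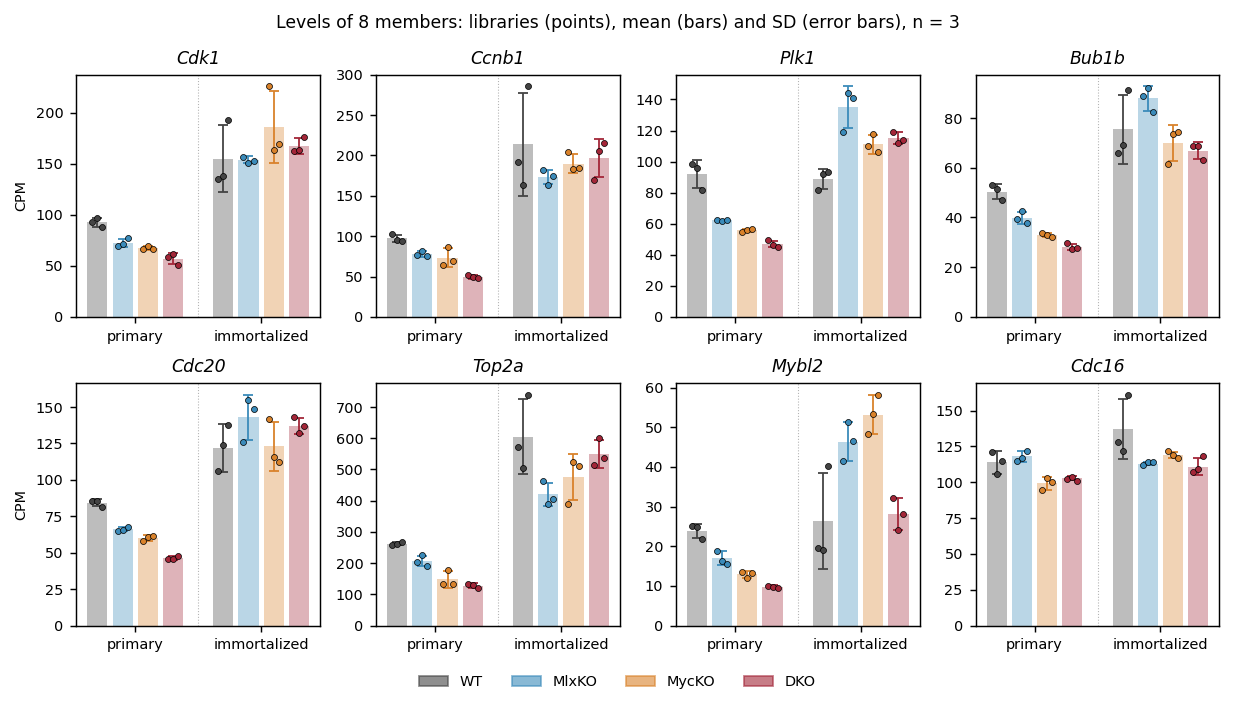
CPM (y axis, starting at 0) of Cdk1, Ccnb1, Plk1, Bub1b, Cdc20, Top2a, Mybl2 and Cdc16 by genotype, primary and immortalized (x axis). Points are libraries, bars are means and error bars are SDs with n = 3, and in primary MEFs Plk1, Bub1b, Cdc20 and Mybl2 step down from WT to DKO without overlap while Cdc16 stays between 94.6 and 122 CPM.

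The APC/C and mitotic exit genes split into those that fell and those that stayed near WT. Of these 9 genes, 5 fell in MycKO, 3 in MlxKO and 5 in DKO MEFs, and their median log2 fold change in DKO was -0.34, the smallest of the role groups. Cdc20 measured 85.7, 85.8 and 81.5 CPM in WT libraries, 65, 65.4 and 67.6 in MlxKO, 58.2, 60.7 and 61.7 in MycKO and 45.4, 45.7 and 47.9 in DKO. Cdc20, the activator of the APC/C in mitosis, had log2 fold changes of -0.35 (MlxKO), -0.48 (MycKO) and -0.85 (DKO), with limma adjusted p = 0.00167, 8.41e-06 and 1.36e-08, and the genotypes did not overlap. Ube2c measured 98.4, 90.2 and 93.4 CPM in WT libraries, 70.4, 72.4 and 85.8 in MlxKO, 75.9, 94.4 and 76.8 in MycKO and 56.9, 59.7 and 55.1 in DKO. Ube2c, its ubiquitin-conjugating enzyme, had log2 fold changes of -0.30 (MlxKO), -0.19 (MycKO) and -0.71 (DKO), with limma adjusted p = 0.0428, 0.0907 and 6.69e-06, with 1 MycKO library inside the WT range and the DKO libraries below all others. Espl1 (separase), the protease that cleaves cohesin, had log2 fold changes of -0.35, -0.77 and -0.90 in MlxKO, MycKO and DKO MEFs.

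Fzr1 and Pttg1 were called in none of the 5 pairwise comparisons of primary MEFs. Fzr1 measured 44.9, 47.8 and 46.9 CPM in WT libraries, 47.2, 44.4 and 47.6 in MlxKO, 42.5, 40.4 and 43.8 in MycKO and 42, 44.7 and 42.9 in DKO. Fzr1 (Cdh1), the activator that takes over from Cdc20 at mitotic exit, had log2 fold changes of -0.00 (MlxKO), -0.14 (MycKO) and -0.10 (DKO), with limma adjusted p = 0.981, 0.11 and 0.206. Pttg1 measured 13.3, 9.67 and 6.9 CPM in WT libraries, 8.64, 7.89 and 8.16 in MlxKO, 11.1, 8.57 and 8.47 in MycKO and 10, 12.1 and 10.9 in DKO. Pttg1 (securin), the inhibitor of separase, had log2 fold changes of -0.21 (MlxKO), -0.04 (MycKO) and 0.17 (DKO), with limma adjusted p = 0.501, 0.858 and 0.417, and its WT libraries spanned all the others.

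The core subunits and the exit phosphatase gave small or uneven values. Cdc16 measured 121, 106 and 115 CPM in WT libraries, 115, 117 and 122 in MlxKO, 94.6, 103 and 100 in MycKO and 102, 104 and 101 in DKO. Cdc16 had log2 fold changes of 0.05 (MlxKO), -0.20 (MycKO) and -0.15 (DKO), with limma adjusted p = 0.691, 0.0195 and 0.0639, and passed the threshold in MycKO MEFs alone. Cdc26 measured 29.8, 28.2 and 29.2 CPM in WT libraries, 25.1, 26.7 and 30.2 in MlxKO, 22.8, 21.5 and 21.9 in MycKO and 23.4, 22.8 and 22.2 in DKO. Cdc26 had log2 fold changes of -0.09 (MlxKO), -0.38 (MycKO) and -0.34 (DKO), with limma adjusted p = 0.551, 0.00123 and 0.0026, and its MycKO and DKO libraries overlapped each other below WT. Cdc14a measured 3.33, 2.99 and 2.28 CPM in WT libraries, 3.36, 2.33 and 3.65 in MlxKO, 2.27, 1.44 and 1.25 in MycKO and 2.15, 2.11 and 1.9 in DKO. Cdc14a, a phosphatase that reverses Cdk1 phosphorylation, had log2 fold changes of 0.08 (MlxKO), -0.55 (MycKO) and -0.33 (DKO), with limma adjusted p = 0.823, 0.0188 and 0.132 at levels near the filter. Of 13 further APC/C genes, subunits and the inhibitor Fbxo5, 4 fell in MycKO, 0 in MlxKO and 5 in DKO MEFs. Of all genes 21.9%, 5.14% and 25.5% fell.

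All 11 spindle motor, midzone and cytokinesis genes fell in MycKO and DKO MEFs and 4 in MlxKO MEFs. Kif11 measured 69.6, 69.5 and 72.2 CPM in WT libraries, 58.8, 69.3 and 60.6 in MlxKO, 37.8, 49.1 and 37.6 in MycKO and 39.2, 33.5 and 31 in DKO. Kif11 (Eg5), the motor that separates spindle poles, had log2 fold changes of -0.16 (MlxKO), -0.76 (MycKO) and -1.01 (DKO), with limma adjusted p = 0.368, 2.1e-05 and 7.51e-07, and its MycKO and DKO ranges met. Kif20a measured 131, 121 and 123 CPM in WT libraries, 101, 108 and 101 in MlxKO, 91.5, 109 and 90.9 in MycKO and 75, 79.2 and 71 in DKO. Kif20a, a midzone kinesin, had log2 fold changes of -0.27 (MlxKO), -0.37 (MycKO) and -0.73 (DKO), with limma adjusted p = 0.0306, 0.000837 and 6.71e-07, and 54.8% of its exon bases overlap Cdc23 on the other strand. Tpx2 measured 150, 149 and 142 CPM in WT libraries, 115, 119 and 115 in MlxKO, 115, 133 and 114 in MycKO and 85.6, 83.9 and 81.3 in DKO. Tpx2, the activator of Aurka on the spindle, had log2 fold changes of -0.34 (MlxKO), -0.29 (MycKO) and -0.81 (DKO), with limma adjusted p = 0.00375, 0.00189 and 4.52e-08. For Tpx2 the single knockouts overlapped, and the DKO libraries lay far below both.

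The 7 condensin and chromosome genes all fell in MycKO and DKO MEFs, and their median log2 fold change in DKO was -1.02. Top2a measured 258, 261 and 267 CPM in WT libraries, 205, 225 and 192 in MlxKO, 132, 179 and 133 in MycKO and 134, 129 and 120 in DKO. Top2a, the topoisomerase that untangles sister chromatids, had log2 fold changes of -0.34 (MlxKO), -0.83 (MycKO) and -1.03 (DKO), with limma adjusted p = 0.0359, 3.37e-06 and 2.34e-07, with MycKO and DKO ranges meeting. Mki67 measured 183, 202 and 175 CPM in WT libraries, 140, 146 and 124 in MlxKO, 105, 140 and 112 in MycKO and 89.9, 97 and 87.7 in DKO. Mki67, the Ki-67 protein that coats mitotic chromosomes, had log2 fold changes of -0.45 (MlxKO), -0.65 (MycKO) and -1.02 (DKO), with limma adjusted p = 0.00695, 3.72e-05 and 2.38e-07, with DKO libraries lowest. Smc2 measured 101, 109 and 103 CPM in WT libraries, 83.6, 92.1 and 80.9 in MlxKO, 59.3, 78.8 and 61.2 in MycKO and 54.3, 51.4 and 46 in DKO. Smc2, a core condensin subunit, had log2 fold changes of -0.28 (MlxKO), -0.65 (MycKO) and -1.03 (DKO), with limma adjusted p = 0.079, 4.31e-05 and 2.41e-07. Ncapg measured 41.9, 40.1 and 45.2 CPM in WT libraries, 35.6, 38.8 and 36.9 in MlxKO, 22.2, 26.5 and 19.7 in MycKO and 17.1, 17.2 and 16.1 in DKO. Ncapg, another condensin subunit, had log2 fold changes of -0.19 (MlxKO), -0.88 (MycKO) and -1.29 (DKO), with limma adjusted p = 0.24, 1.95e-06 and 2.22e-08, and its DKO value was the largest fall of the 60 genes.

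Both transcription factors of the mitotic programme fell in every knockout. Foxm1 measured 89.7, 90.3 and 82.7 CPM in WT libraries, 72, 72.6 and 70.9 in MlxKO, 57.3, 63.8 and 58.5 in MycKO and 46.7, 45.4 and 46.2 in DKO. Foxm1, at chr6:128339518-128353147 on GRCm39, had log2 fold changes of -0.28 (MlxKO), -0.54 (MycKO) and -0.91 (DKO), with limma adjusted p = 0.0109, 4.44e-06 and 1.28e-08. Mybl2 measured 25.1, 24.8 and 21.8 CPM in WT libraries, 18.9, 16.4 and 15.6 in MlxKO, 13.5, 12 and 13.2 in MycKO and 10.1, 9.82 and 9.45 in DKO. Mybl2, at chr2:162896435-162926614, had log2 fold changes of -0.47 (MlxKO), -0.84 (MycKO) and -1.20 (DKO), with limma adjusted p = 0.00616, 4.06e-06 and 5.8e-08, although the pseudogene Gm3320 shares 22.7% of its 50-base stretches. The 4 genotypes of both genes stepped down without overlap.

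Many of the mitotic genes were lower after the double loss than after either loss alone, in lines that came from separate embryo pools. Against MycKO MEFs, 37 of 60 genes were lower in DKO MEFs (61.7%, where 11% of all genes were lower and 10.6% higher), at a median log2 difference of -0.31, and against MlxKO MEFs 55 were lower (91.7%, where 25.9% were lower and 23.3% higher), at a median of -0.54. By limma 0 were higher in either comparison, while Pttg1 was called higher in DKO than in MlxKO MEFs by DESeq2, by limma on those 2 groups alone, without WT library 1 or 3, and after adjustment for GC content and length of transcripts. Ube2c changed by -0.51 and Tpx2 by -0.52 from MycKO to DKO MEFs. The means followed the order WT, MlxKO, MycKO, DKO from high to low in 47 of 60 genes, where 12.1% of all genes did. WT was the highest mean in 55 (25% of all genes) and DKO the lowest in 54 (31.9% of all genes).

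**Figure D4:**
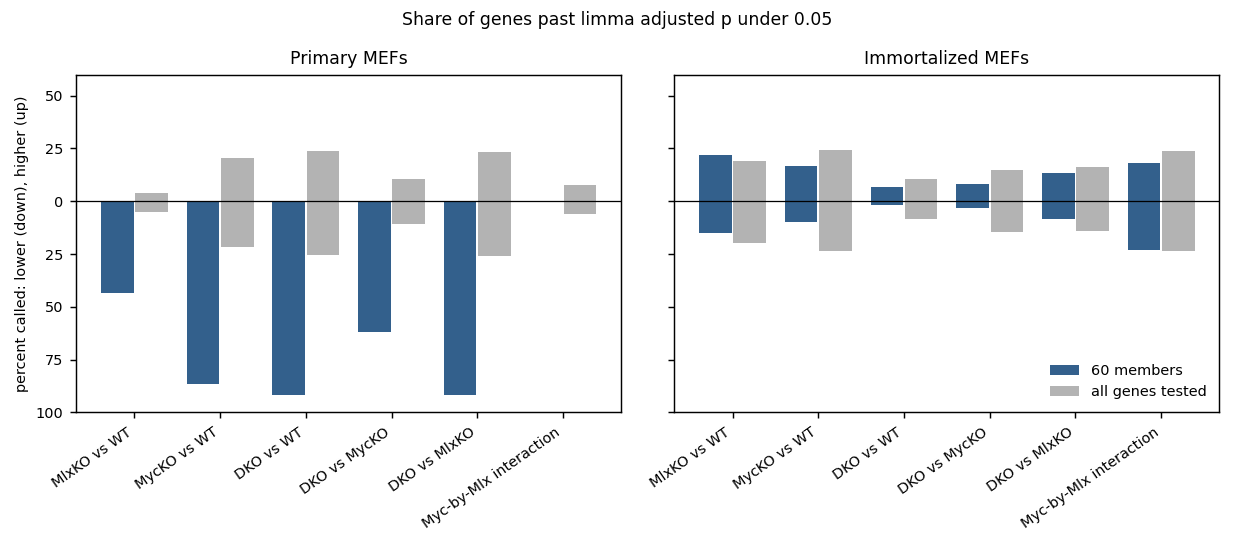
Percent of the 60 genes and of all genes tested (y axis) that were called lower (bars drawn down from 0) or higher (bars drawn up) in each comparison (x axis), primary on the left and immortalized on the right. Calls are at a limma adjusted p below 0.05, and in primary DKO against WT the bar of the 60 genes reaches 91.7% lower, where 25.5% of all genes were.

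Whether the effect of losing Mlx depended on Myc was tested as an interaction on the log2 scale. In primary MEFs limma called 0 of 60 genes, where 13.5% of all genes were called (6.07% below 0 and 7.47% above), and 3 genes (Plk1, Incenp and Bub3) had an unadjusted p below 0.05, while edgeR and DESeq2 each called 1 gene, Plk1. The interaction of Plk1 was 0.31 (SE 0.1, limma adjusted p = 0.0523), where a value above 0 marks a double-loss effect smaller than the sum of the single ones. The median interaction was -0.04, with a range of -0.27 to 0.42 and a median 95% interval half-width of 0.28, and 57 of 60 intervals included 0. The interactions of Incenp and Bub3, whose intervals also left out 0, were 0.27 and -0.22.

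Single libraries moved the counts in MlxKO MEFs and in DKO against MycKO MEFs. The count in MlxKO MEFs was 38 without MycKO library 10, 13 without WT library 1, 15 without WT library 2 or MlxKO library 5 and 17 without MlxKO library 6, and 10 genes passed in every such fit (Cdk1, Plk1, Incenp, Cdca8, Cenpa, Cdc20, Tpx2, Prc1, Mki67 and Mybl2). The DKO against MycKO count fell to 21 without DKO library 15, and the interaction count was 3 without WT library 3 and 2 without MycKO library 10. In MycKO and DKO MEFs 48 and 55 genes passed in every such fit.

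Other genes of the pathway, taken from lists written without regard to how they moved, are given by their counts in primary MEFs, where 21.9%, 5.14% and 25.5% of all genes fell in MycKO, MlxKO and DKO. No test was made between lists. Of 29 other kinetochore and centromere genes, 22 fell in MycKO, 3 in MlxKO and 24 in DKO MEFs, where 1 rose. Of 26 other spindle and cytokinesis genes, 19 fell and 1 rose in MycKO, 7 fell in MlxKO, and 23 fell and 2 rose in DKO MEFs. Cohesin is the ring that holds sister chromatids together. Of 15 genes for cohesin and its regulators, 9 fell in MycKO, 0 in MlxKO and 10 in DKO MEFs. Among the 10 tested genes of the MuvB and DREAM complex, which represses and activates mitotic genes, 5 fell in MycKO, 0 in MlxKO and 5 in DKO MEFs, where 1 rose. Of 29 DNA replication genes, which belong to S phase and not to mitosis, 26 fell in MycKO, 9 in MlxKO and 27 in DKO MEFs, at medians of -0.70, -0.23 and -1.13.

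In immortalized MEFs 1 WT library, number 4 in the table, stood apart, and it is described first because each comparison with WT rests on it. Its Myc RNA was 177 CPM against 48.1 and 39.9 in the other WT libraries, and its summed mitotic genes reached 9149 CPM against 6504 and 6011. It was the highest of its group for 52 of the 60 genes and the highest of all 12 immortalized libraries for 35. Myc RNA was 9.96 to 17.2 CPM in MycKO and 4.25 to 8.02 in DKO immortalized MEFs. Mlx RNA was 20.5 to 25.1 CPM in WT, 12.1 to 17 in MlxKO and 14.5 to 18 in DKO immortalized MEFs. Its log2 fold change was -0.71 in MlxKO MEFs and -0.44 in DKO MEFs, where it was not called (limma adjusted p = 0.0694). The macrophage marker sum was 1.33 to 5.91 CPM, with Adgre1 and Tyrobp at 0 in all groups.

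The uniform fall of primary MEFs was not seen in immortalized MEFs. Against WT, 6 genes fell and 10 rose in MycKO MEFs (23.5% of all 12880 genes fell and 24.4% rose), 9 fell and 13 rose in MlxKO MEFs (19.9% and 19.1%), and 1 fell and 4 rose in DKO MEFs (8.51% and 10.4%). The medians of the 60 genes were -0.04, -0.08 and 0.02. Without WT library 4, 3 genes fell and 18 rose in MycKO (26.7% and 27.3% of all genes), 5 fell and 22 rose in MlxKO (23.8% and 23.1%), and 0 fell and 14 rose in DKO MEFs (10.1% and 12%). The medians then were 0.16, 0.15 and 0.21. Scaling the libraries by their totals gave 2 lower and 21 higher in MlxKO MEFs (12.3% and 28.5% of all genes), where the median of all genes was 0.16 in place of 0.01.

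Foxm1, Plk1 and Cdc25b were higher in all 3 immortalized knockouts. Foxm1 measured 111, 112 and 164 CPM in WT libraries, 170, 196 and 177 in MlxKO, 200, 246 and 245 in MycKO and 194, 186 and 169 in DKO. Foxm1 had log2 fold changes of 0.51 (MlxKO), 0.85 (MycKO) and 0.52 (DKO), with limma adjusted p = 0.0191, 0.000707 and 0.0303, and its 9 knockout libraries were above WT. Plk1 measured 81.8, 91.7 and 93.6 CPM in WT libraries, 119, 144 and 141 in MlxKO, 110, 118 and 106 in MycKO and 119, 112 and 114 in DKO. Plk1 had log2 fold changes of 0.59 (MlxKO), 0.32 (MycKO) and 0.37 (DKO), with limma adjusted p = 0.00134, 0.0229 and 0.0264, but in MycKO MEFs it was -0.01 once adjusted for the GC content and length of transcripts. Cdc25b measured 45, 47.4 and 50.9 CPM in WT libraries, 73.8, 76.9 and 73.1 in MlxKO, 52.4, 63.6 and 60.3 in MycKO and 66.4, 66.3 and 64.3 in DKO. Cdc25b had log2 fold changes of 0.63 (MlxKO), 0.29 (MycKO) and 0.45 (DKO), with limma adjusted p = 0.000789, 0.0284 and 0.00868. All knockout libraries of these genes lay above WT, the library that stood apart included. After adjustment for GC content and length, Cdc25b stayed called in all 3 knockouts, Foxm1 in MycKO MEFs alone and Plk1 in none. Mybl2 measured 19.6, 19.1 and 40.2 CPM in WT libraries, 41.5, 51.3 and 46.5 in MlxKO, 48.2, 53.4 and 58.1 in MycKO and 32.1, 24.2 and 28.1 in DKO. Mybl2 had log2 fold changes of 0.88 (MlxKO), 1.07 (MycKO) and 0.17 (DKO), with limma adjusted p = 0.0116, 0.00264 and 0.638, so that it rose with either loss and lay inside the WT range with both. The upper end of that range was WT library 4, and without it Mybl2 was also called higher in DKO MEFs. With the GC and length adjustment Mybl2 stayed called in MycKO MEFs alone.

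The other entry genes gave mixed values. Cdc25c measured 20.7, 20 and 20.5 CPM in WT libraries, 24.5, 24.6 and 25 in MlxKO, 21.5, 19.5 and 20.7 in MycKO and 31.7, 27.6 and 31.1 in DKO. Cdc25c had log2 fold changes of 0.27 (MlxKO), 0.01 (MycKO) and 0.54 (DKO), with limma adjusted p = 0.06, 0.943 and 0.00464, with a clear gap between DKO and WT libraries. Cdc25a measured 31.6, 36.1 and 59.2 CPM in WT libraries, 50.5, 54.4 and 56.8 in MlxKO, 41.4, 52.4 and 46.7 in MycKO and 29.7, 27.7 and 26.7 in DKO. Cdc25a had log2 fold changes of 0.39 (MlxKO), 0.19 (MycKO) and -0.52 (DKO), with limma adjusted p = 0.113, 0.423 and 0.0696 and was lower in DKO than in MycKO, by -0.72 (SE 0.19, limma adjusted p = 0.0127), and than in MlxKO MEFs, by -0.92 (SE 0.19, limma adjusted p = 0.00364). Ccnb2 measured 75.7, 68.6 and 93.7 CPM in WT libraries, 78, 83.4 and 87 in MlxKO, 78.3, 68.4 and 72.4 in MycKO and 55.2, 61.3 and 60.7 in DKO. Ccnb2 had log2 fold changes of 0.07 (MlxKO), -0.11 (MycKO) and -0.41 (DKO), with limma adjusted p = 0.651, 0.476 and 0.0331 and was the one gene called lower in DKO MEFs. Wee1 measured 81.6, 76.1 and 64.9 CPM in WT libraries, 57.5, 49.7 and 44 in MlxKO, 64, 75 and 75.8 in MycKO and 65.2, 73.8 and 65.6 in DKO. Wee1 had log2 fold changes of -0.55 (MlxKO), -0.05 (MycKO) and -0.12 (DKO), with limma adjusted p = 0.00591, 0.775 and 0.544, with MlxKO libraries below WT. Cdk1 and Ccnb1 were not called. Cdk1 measured 135, 138 and 193 CPM in WT libraries, 157, 151 and 153 in MlxKO, 226, 163 and 169 in MycKO and 162, 163 and 176 in DKO. Ccnb1 measured 192, 164 and 286 CPM in WT libraries, 182, 164 and 174 in MlxKO, 204, 183 and 184 in MycKO and 170, 205 and 215 in DKO. Both spanned wide WT ranges that most knockout libraries fell inside.

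Kinases and passenger subunits were higher or not called. Aurkb measured 46.8, 47.6 and 61.2 CPM in WT libraries, 64.8, 71.7 and 70.1 in MlxKO, 69.7, 70.1 and 74.9 in MycKO and 70, 58.3 and 55.6 in DKO. Aurkb had log2 fold changes of 0.41 (MlxKO), 0.47 (MycKO) and 0.24 (DKO), with limma adjusted p = 0.0212, 0.00889 and 0.189. Aurka, Plk4 and Birc5 were not called in any comparison with WT. Aurka measured 50.8, 54.8 and 79.2 CPM in WT libraries, 71.5, 78.7 and 73.3 in MlxKO, 75.2, 73.2 and 75.1 in MycKO and 60.8, 62.3 and 72.3 in DKO. Plk4 measured 77.2, 68.4 and 130 CPM in WT libraries, 93.9, 69.5 and 73.3 in MlxKO, 76.1, 85 and 85.2 in MycKO and 73.8, 86.8 and 82 in DKO. Birc5 measured 53.1, 57.6 and 100 CPM in WT libraries, 76, 69.1 and 71.1 in MlxKO, 107, 72.9 and 76.7 in MycKO and 63, 67.1 and 72.3 in DKO. For each of the 3, WT library 4 was the highest in its group and set the upper end of the WT range.

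Kinetochore and checkpoint genes included some that fell. Against WT, 3 of 9 kinetochore genes fell and 1 rose in MlxKO MEFs (19.9% and 19.1% of all genes did). In MycKO MEFs 1 fell and 1 rose (23.5% and 24.4%), and in DKO MEFs 0 fell and 0 rose (8.51% and 10.4%). None of those called in MlxKO MEFs stayed called there after adjustment for GC content and length. Cenpf measured 103, 97.2 and 115 CPM in WT libraries, 81.9, 70.7 and 70.7 in MlxKO, 71.9, 108 and 105 in MycKO and 111, 116 and 87.8 in DKO. Cenpf had log2 fold changes of -0.49 (MlxKO), -0.17 (MycKO) and -0.01 (DKO), with limma adjusted p = 0.0285, 0.408 and 0.969, and its MlxKO libraries were below WT. Cenpa measured 61.6, 61.6 and 119 CPM in WT libraries, 94.9, 108 and 106 in MlxKO, 98.9, 67.2 and 65.1 in MycKO and 74.8, 75.7 and 77.4 in DKO. Ndc80 measured 63.8, 51 and 89.4 CPM in WT libraries, 58.1, 41 and 44.4 in MlxKO, 55, 51.9 and 50.9 in MycKO and 52.4, 64.1 and 62.4 in DKO. Neither gene was called. Bub3 measured 164, 143 and 162 CPM in WT libraries, 123, 130 and 132 in MlxKO, 159, 144 and 145 in MycKO and 141, 164 and 163 in DKO. Bub3 had log2 fold changes of -0.28 (MlxKO), -0.06 (MycKO) and -0.00 (DKO), with limma adjusted p = 0.0398, 0.624 and 0.991. Mad1l1 measured 34.7, 35.7 and 34.5 CPM in WT libraries, 50.2, 59.8 and 51.9 in MlxKO, 36.2, 41.6 and 41.8 in MycKO and 41.3, 36 and 37.7 in DKO. Mad1l1 had log2 fold changes of 0.61 (MlxKO), 0.18 (MycKO) and 0.13 (DKO), with limma adjusted p = 0.00152, 0.181 and 0.42 and stood well above WT in MlxKO MEFs. Bub1 measured 85.7, 66.1 and 142 CPM in WT libraries, 72.7, 59.7 and 60 in MlxKO, 89.2, 86.7 and 85.3 in MycKO and 69.7, 85 and 87 in DKO. Bub1b measured 65.9, 69.1 and 91.4 CPM in WT libraries, 89, 92.2 and 82.5 in MlxKO, 61.4, 73.5 and 74.4 in MycKO and 68.9, 68.7 and 63.1 in DKO. Mad2l1 measured 77.9, 63.4 and 133 CPM in WT libraries, 74.2, 61.6 and 67.2 in MlxKO, 95.6, 74.7 and 84.9 in MycKO and 68.4, 88.3 and 91.2 in DKO. These last 3 were not called against WT, and in each WT library 4 was the highest of its group.

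Of 9 APC/C and exit genes, 3 rose and 1 fell in MycKO MEFs (24.4% and 23.5% of all genes did) and 4 rose in MlxKO MEFs (19.1%). After adjustment for GC content and length, only Pttg1 of these called genes stayed called in either, and Cdc20 was lower in MycKO MEFs at a log2 fold change of -0.33 (limma adjusted p = 0.0268). Fzr1 measured 31.9, 38 and 45.1 CPM in WT libraries, 48.3, 70.7 and 61.1 in MlxKO, 55.6, 65.5 and 59.3 in MycKO and 51.9, 40.2 and 44.4 in DKO. Fzr1 had log2 fold changes of 0.63 (MlxKO), 0.65 (MycKO) and 0.25 (DKO), with limma adjusted p = 0.0102, 0.00642 and 0.296. Pttg1 measured 18.4, 17.5 and 10.5 CPM in WT libraries, 25.4, 22.8 and 23.8 in MlxKO, 27.4, 21.1 and 24.7 in MycKO and 21, 20 and 23.6 in DKO. Pttg1 had log2 fold changes of 0.64 (MlxKO), 0.65 (MycKO) and 0.48 (DKO), with limma adjusted p = 0.0175, 0.012 and 0.0845, with all knockout libraries above WT. Cdc14a measured 6.62, 5.99 and 7.55 CPM in WT libraries, 4.98, 4.2 and 5.97 in MlxKO, 3.83, 4.67 and 4.56 in MycKO and 6.6, 7.52 and 7.07 in DKO. Cdc14a had log2 fold changes of -0.36 (MlxKO), -0.53 (MycKO) and 0.07 (DKO), with limma adjusted p = 0.0838, 0.0142 and 0.787, with MycKO libraries below WT. Cdc20, Ube2c, Cdc16 and Cdc26 were not called. Cdc20 measured 106, 124 and 138 CPM in WT libraries, 126, 155 and 149 in MlxKO, 142, 116 and 112 in MycKO and 143, 132 and 137 in DKO. Ube2c measured 113, 103 and 202 CPM in WT libraries, 132, 119 and 125 in MlxKO, 177, 156 and 171 in MycKO and 131, 154 and 157 in DKO. The first showed overlapping groups, and the second a WT range from 103 to 202. Cdc16 measured 128, 122 and 161 CPM in WT libraries, 112, 114 and 114 in MlxKO, 122, 119 and 117 in MycKO and 107, 109 and 118 in DKO. Cdc26 measured 30.4, 37 and 34.3 CPM in WT libraries, 34.6, 29 and 33.4 in MlxKO, 42.2, 23.2 and 25.9 in MycKO and 29.6, 31.7 and 32.8 in DKO. For neither gene did a knockout differ from WT past the threshold.

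Of the 18 spindle and chromosome genes, 4 fell in MycKO and 4 in MlxKO MEFs (23.5% and 19.9% of all genes did), and 0 rose by limma in either. Kif11 measured 165, 148 and 244 CPM in WT libraries, 164, 125 and 134 in MlxKO, 109, 142 and 140 in MycKO and 145, 180 and 157 in DKO. Kif11 had log2 fold changes of -0.37 (MlxKO), -0.48 (MycKO) and -0.18 (DKO), with limma adjusted p = 0.124, 0.044 and 0.509. Top2a measured 573, 504 and 739 CPM in WT libraries, 463, 391 and 406 in MlxKO, 390, 524 and 511 in MycKO and 514, 601 and 536 in DKO. Top2a had log2 fold changes of -0.51 (MlxKO), -0.34 (MycKO) and -0.12 (DKO), with limma adjusted p = 0.0236, 0.0924 and 0.612. Smc2 measured 239, 205 and 356 CPM in WT libraries, 204, 157 and 170 in MlxKO, 224, 264 and 248 in MycKO and 206, 259 and 228 in DKO. Smc2 had log2 fold changes of -0.56 (MlxKO), -0.08 (MycKO) and -0.17 (DKO), with limma adjusted p = 0.0286, 0.729 and 0.522. Ncapg measured 111, 90.6 and 189 CPM in WT libraries, 90.2, 65 and 68.9 in MlxKO, 66.6, 75.6 and 83.7 in MycKO and 77.7, 101 and 101 in DKO. Ncapg had log2 fold changes of -0.74 (MlxKO), -0.72 (MycKO) and -0.42 (DKO), with limma adjusted p = 0.0242, 0.0219 and 0.212 and held the largest fall against WT in both single knockouts. Hmmr, a spindle assembly protein, had log2 fold changes of -0.48, -0.55 and 0.02, and Knl1, the kinetochore scaffold, had -0.64, -0.58 and -0.30 in MlxKO, MycKO and DKO MEFs. Mki67, Kif20a and Tpx2 were not called. Mki67 measured 380, 344 and 431 CPM in WT libraries, 352, 325 and 303 in MlxKO, 268, 383 and 382 in MycKO and 384, 404 and 321 in DKO. Kif20a measured 143, 145 and 224 CPM in WT libraries, 203, 205 and 202 in MlxKO, 178, 194 and 188 in MycKO and 202, 202 and 197 in DKO. Tpx2 measured 194, 179 and 270 CPM in WT libraries, 203, 195 and 189 in MlxKO, 211, 247 and 256 in MycKO and 211, 233 and 224 in DKO. Their knockout libraries lay within or near the WT range.

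In immortalized MEFs the fold changes of the 60 genes moved with the GC content of the transcript. Across the 60 genes, transcript GC content and log2 fold change had a Spearman's rho of 0.829 for MlxKO, 0.742 for MycKO and 0.56 for DKO MEFs, against 0.597, 0.4 and 0.389 over all genes tested. These are descriptions across genes that share the same libraries. The 20 genes of lowest GC content (37.9% to 44.2%) had medians of -0.34, -0.42 and -0.14 in MycKO, MlxKO and DKO MEFs, and the 20 of highest (50.2% to 62.5%) had 0.32, 0.40 and 0.13. Among the lowest 5, 7 and 0 genes fell and 0 rose, and among the highest 0, 1 (Wee1) and 0 fell and 8, 10 and 2 rose. In primary MEFs the same sets had -0.63, -0.25 and -0.98 against -0.53, -0.30 and -0.86, so both fell. With fold changes adjusted for both GC content and length of the transcript, a step added after the data were seen, 2 fell and 6 rose in MycKO immortalized MEFs (25% and 21.6% of all genes). In MlxKO MEFs 1 fell and 4 rose (16.3% and 10.9%), and in DKO MEFs 1 fell and 5 rose (11.2% and 10.4%). In primary MEFs 52, 40 and 56 then fell in MycKO, MlxKO and DKO (22.7%, 8.03% and 26.2% of all genes fell and 24.7%, 7.27% and 26.5% rose), Pttg1 rose in DKO, and 0 genes were called for the primary interaction (9.97% of all genes below 0 and 9.26% above). The part of GC content in the uncorrected values was not tested beyond this.

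Few immortalized calls held in every fit. Over 14 fits, the 12 that leave out a library, the GC and length adjustment and scaling by totals, Pttg1, Foxm1 and Mybl2 were higher in MycKO MEFs each time. Cdc25b and Incenp were higher and Wee1 lower in MlxKO MEFs each time, and Cdc25b and Cdc25c higher in DKO MEFs.

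Between immortalized knockouts, 2 genes were lower and 5 higher in DKO than in MycKO MEFs (14.6% and 14.8% of all genes), and 5 were lower and 8 higher in DKO than in MlxKO MEFs (13.9% and 16.3%). Scaling by library totals turned the latter to 15 lower and 3 higher (23.9% and 9.82% of all genes), where the median of all genes was -0.16 in place of 0.00. Without WT library 4, which enters these comparisons only through the shared estimate of the spread, the counts were 7 lower and 6 higher (20.5% each), and 10 lower and 15 higher (20.6% and 22.6%). Cdc25c was higher in DKO than in MycKO MEFs by 0.53 (SE 0.1, limma adjusted p = 0.00223), in every one of the 14 fits.

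The interaction of the Myc and Mlx losses, for which limma called 0 of the 60 genes in primary MEFs and edgeR and DESeq2 1 each, was called by limma in 25 immortalized genes (47.4% of all genes were), of which 14 were below 0 and 11 above (23.8% and 23.7% of all genes). A value below 0 means that the double loss left a gene lower than the sum of the single effects. Mybl2 had the largest, -1.78 (SE 0.33, limma adjusted p = 0.00105), and Hmmr the largest above 0, 1.04 (SE 0.23, limma adjusted p = 0.0032). With scaling by totals 17 lay below and 7 above 0 (30.4% and 18%), where the median of all genes was -0.18 in place of -0.01, and without WT library 4 the counts were 22 below and 10 above (28.7% and 28.1%). The interaction followed GC content across the 60 genes at a rho of -0.836, against -0.461 over all genes, and after the adjustment 5 lay below and 5 above (19.1% and 23.1%). Cdc25a, Cdc25b, Incenp, Nuf2, Spc24, Cdc14a, Hmmr and Mybl2 were called in each of the 14 fits.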

How the data were processed

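Poly-A RNA was sequenced with a directional kit, and the authors mapped reads to GRCm39 with CLC Genomics Workbench. Their counts per gene were deposited as a signal in CPM (reads scaled to a common library size), and the step that scales libraries against each other was not given in the sources used here. The deposited columns sum to slightly different totals, and every value was a whole multiple of what 1 read is worth in its library (within 0.1 of a read), so whole reads were recovered, 15986856 to 20966163 per library. A floor of 3 reads is 0.145 to 0.196 CPM. No column of the tables was left unused.

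The members and gene lists were chosen with earlier results of these data known. In each table, limma 3.58.1 (R 4.3.3, trended empirical Bayes) was fitted to log2(CPM + 1) of all genes that reached 1 CPM in 3 or more of 12 libraries, with 4 genotype means, and p-values were adjusted by Benjamini-Hochberg over all genes tested. Named genes were 35 members fixed by role, plus, in each comparison, the called members with the largest rise and fall, those called against the direction of most, and the 6 largest interactions, which added 8. The alternatives tried were dropping the filter, setting it at a mean of 5 CPM, adding 0.1 in place of 1 before the log, scaling by median ratios or by totals, fits of the compared groups alone, a robust prior, edgeR 4.0.16 (quasi-likelihood) and DESeq2 1.42.0 on recovered reads, and leaving out each library. An adjustment of fold changes for GC content and length of the transcript was added after seeing the data. The fitting code was tested on simulated data. Gene places, overlaps and shared stretches came from GENCODE on GRCm39, and promoters from RefSeq on GRCm38.p6. Primary and immortalized tables were not tested against each other.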

Additional observations from a re-analysis of the deposited data

Results flagged for a closer look

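In immortalized MEFs the effect of losing Mlx differed with the state of Myc for 25 of the 60 genes. These are limma calls of the interaction at a Benjamini-Hochberg adjusted p below 0.05, with 3 libraries per genotype. This was a smaller share than over all genes tested, of which 47.4% were called (23.8% below and 23.7% above 0). The values are interactions on the log2 scale. Below 0 lay Mybl2 (-1.78), Cdc25a (-1.11), Fzr1 (-1.03), Espl1 (-1.02) and Ube2s (-0.89). Further genes below 0 were Spc24 (-0.84), Foxm1 (-0.83), Pttg1 (-0.81), Pkmyt1 (-0.73) and Mad1l1 (-0.66). The smallest of those below 0 were Aurkb (-0.64), Incenp (-0.58), Plk1 (-0.54) and Cdc25b (-0.47). Above 0 lay Hmmr (1.04), Ncapg (1.04), Cdc14a (0.95) and Knl1 (0.91). Further genes above 0 were Nuf2 (0.81), Cenpe (0.81), Top2a (0.73) and Nusap1 (0.72). Last came Kif11 (0.68), Cenpf (0.65) and Wee1 (0.48). In primary MEFs limma called 0 of the 60 (13.5% of all genes), with 3 at an unadjusted p below 0.05 and 1 by edgeR and by DESeq2. Across the 60 genes the immortalized interaction had a Spearman rho of -0.836 with transcript GC content, and without WT library 4 it was called below 0 in 22 genes and above 0 in 10 (28.7% and 28.1% of all genes). After adjustment for GC content and length of the transcript it was called below 0 in 5 genes and above 0 in 5 (19.1% and 23.1%).

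For some genes every knockout library lay below WT in primary MEFs and above WT in immortalized MEFs, 9 of the 60 in MycKO (3.06% of the 12402 genes tested in both tables did so), 9 in MlxKO (3.44%) and 6 in DKO MEFs (3.09%). The reverse pattern was seen in 3.26%, 4.33% and 2.84% of all genes. In primary MEFs alone, 54, 45 and 58 of the 60 genes had every MycKO, MlxKO or DKO library below WT. In immortalized MEFs alone, 11, 13 and 7 of the 60 had every such library above WT, where 26%, 23.9% and 19.2% of all genes did. These immortalized shares were below those of all genes, so the counts above repeat the primary fall and are no separate result. The tables were normalized separately, so the difference between them was not tested. Libraries that do not overlap are not a call, and 7, 8 and 4 of these genes passed the limma threshold in both tables, the exceptions being Fzr1 and Ube2s in MycKO, Pkmyt1 in MlxKO and Incenp and Mad1l1 in DKO MEFs. The values are immortalized log2 fold changes, and the primary ones lay below 0. In MycKO MEFs these genes were Cdc25b (0.29), Pkmyt1 (0.39), Plk1 (0.32), Aurkb (0.47), Spc24 (0.49), Fzr1 (0.65), Ube2s (0.84), Foxm1 (0.85) and Mybl2 (1.07). In MlxKO MEFs these genes were Cdc25b (0.63), Pkmyt1 (0.62), Plk1 (0.59), Aurkb (0.41), Incenp (0.63), Spc24 (0.46), Espl1 (0.71), Foxm1 (0.51) and Mybl2 (0.88). In DKO MEFs these genes were Cdc25b (0.45), Cdc25c (0.54), Plk1 (0.37), Incenp (0.35), Mad1l1 (0.13) and Foxm1 (0.52). Immortalized fold changes of the 60 genes rose with transcript GC content, at a rho of 0.742 (MycKO), 0.829 (MlxKO) and 0.56 (DKO). After adjustment for GC content and length, Cdc25b, Foxm1 and Mybl2 of these genes stayed called in MycKO immortalized MEFs. Cdc25b and Incenp did so in MlxKO MEFs, and Cdc25b, Cdc25c and Incenp in DKO MEFs.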

How the results depend on the processing

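The counts of called genes in primary MycKO, DKO and DKO against MlxKO comparisons stayed within 1.5 times under every alternative run. Leaving out each library in turn gave 49 to 55 in primary MycKO, 13 to 38 in MlxKO, 55 to 57 in DKO, 21 to 37 in DKO against MycKO, 51 to 56 in DKO against MlxKO and 0 to 3 in the interaction (3 without WT library 3, 2 without MycKO library 10). In immortalized MEFs the same ranges were 10 to 21, 7 to 27, 2 to 14, 2 to 13, 5 to 25 and 17 to 32. The lows came without MycKO library 10 or WT library 2 in MycKO (10 each), and MlxKO library 6 in MlxKO (7, with 8 without MlxKO library 7 and 13 without WT library 2). In DKO they came without any 1 DKO library (2 each, with 3 without WT library 2). In DKO against MycKO they came without DKO library 14 (2, with 4 without DKO library 15 and 3 without MycKO library 10), and in DKO against MlxKO without MlxKO library 6, MlxKO library 7 or DKO library 14 (5 each, with 7 without DKO library 15). The highs of immortalized MycKO, MlxKO, DKO, DKO against MycKO and DKO against MlxKO came without WT library 4 (21, 27, 14, 13 and 25).

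Correction for GC content and transcript length gave 40 in primary MlxKO and 8, 5 and 10 in immortalized MycKO, MlxKO and the interaction. The primary interaction count was 1 with median-ratio scaling, edgeR or DESeq2. Fitting only the groups compared, with fewer samples, gave 6, 8, 2, 11 and 27 in immortalized MycKO, MlxKO, DKO, DKO against MycKO and DKO against MlxKO. No filter gave 7 in immortalized DKO against MlxKO, and DESeq2 gave 8 in immortalized DKO. Of all genes, DESeq2 called 3003 of 12847 there and limma 2434 of 12880. Shares of all genes are not given for the fits without a filter or of the compared groups alone. Except as stated, the cause was not tested. Single values reversed with the GC and length correction were Plk1 in immortalized MycKO (-0.014, limma adjusted p = 0.904), Cdc20 in immortalized MycKO (-0.33, limma adjusted p = 0.0268) and the Cdc20 immortalized interaction (0.45, limma adjusted p = 0.0339). Over all named genes and alternatives, 11187 values kept direction and side of the threshold, 406 lost and 180 gained significance, and 3 reversed. No paired analysis was possible because the columns carry library numbers that the labels do not tie to replicate numbers. With 3 libraries per genotype, the median 95% interval half-width of an interaction was 0.28 in primary and 0.49 in immortalized MEFs, and it differed by gene.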

Other observations

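Counts of other genes around mitosis in immortalized MEFs are set beside the share of all genes called by limma, 23.5% lower and 24.4% higher in MycKO, 19.9% and 19.1% in MlxKO, and 8.51% and 10.4% in DKO MEFs. Of 15 genes for cohesin and its regulators, 10 fell and 0 rose in MycKO, 9 fell and 2 rose in MlxKO and 5 fell and 0 rose in DKO MEFs. Their median log2 fold changes were -0.54, -0.59 and -0.31 by limma. Of 29 other kinetochore and centromere genes, 4 fell and 8 rose in MycKO MEFs, and of 29 DNA replication genes 3 fell and 4 rose. No test was made between these lists and the 60 genes, and the part of GC content in these values was not tested.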
